A study of Mus musculus with 6 samples.

Results

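The muscle small heat shock proteins were followed through 7 genes: *Cryab*, *Hspb1*, *Hspb2*, *Hspb3*, *Hspb6*, *Hspb7* and *Hspb8*. They were taken by symbol from a count matrix of 55401 genes, and all 7 were among the 17310 genes that passed a filter on low counts and were tested. RNA was sequenced from C2C12 cells 2 d after the switch to 2% horse serum. C2C12 is a line of mouse myoblasts, which form myotubes by fusion when serum is lowered. The 3 *Phf2* KO libraries came from cells that had received 4 pooled plasmids, each with a guide against *Phf2*, the gene of a demethylase of histone H3 lysine 9. The 3 control libraries came from mock cells, labelled wild type, whose plasmid carried a guide without a match in the mouse genome. The cells of both groups carried Cas9 and ZsGreen on the plasmid, were sorted for green fluorescence, and were expanded, frozen and thawed without cloning. Each group was therefore 1 mixed pool, its libraries were wells of a single experiment, and p-values measure the spread between wells. Differences between the pools, breaks of DNA at the guide sites, and loss of PHF2 cannot be told apart.

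Small heat shock proteins share an alpha-crystallin domain, assemble into oligomers and hold unfolding proteins in solution without using ATP. In muscle they gather at the Z-disc and on intermediate filaments, where desmin, actin, filamin C and titin are among the proteins they bind. *Cryab* (alphaB-crystallin) and *Hspb1* (the mouse form of Hsp27) are made in many tissues and respond to heat shock factor 1, whereas *Hspb2*, *Hspb3* and *Hspb7* are found mainly in heart and skeletal muscle. Variants of *CRYAB* and *HSPB8* cause myopathies in patients.

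In GRCm38 (mm10) the genes lie on 5 chromosomes. *Cryab* (ENSMUSG00000032060, chr9:50751325-50756636, plus strand) and *Hspb2* (ENSMUSG00000038086, chr9:50751078-50752354, minus strand) are divergent neighbours, and the starts of their first-numbered transcripts are 613 bp apart. Of the 6 annotated *Cryab* transcripts, 2 start inside *Hspb2*, so that 252 exonic bases (30.2% of those of *Hspb2* and 17.04% of those of *Cryab*) belong to both genes on opposite strands. The library kit keeps strand, but the strand setting of the counting is not given in the sources used here, so reads in these bases may not be assigned with certainty. *Hspb1* (ENSMUSG00000004951, chr5:135887919-135889563, plus) and *Hspb8* (ENSMUSG00000041548, chr5:116408491-116422864, minus) share chromosome 5. *Hspb3* (ENSMUSG00000051456, chr13:113662896-113663676, minus) lies on the chromosome of *Phf2*, *Hspb6* (ENSMUSG00000036854, chr7:30552178-30555443, plus) on chromosome 7, and *Hspb7* (ENSMUSG00000006221, chr4:141420779-141425311, plus) on chromosome 4. *Hspb6* overlaps *Proser3* (counts of 318 to 412) by 122 bp and *Lin37* (454 to 671) by 3 bp, both on the opposite strand, and on its own strand the miRNA gene *Gm38670*, which had a count of at most 1 in each library.

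Promoter windows of RefSeq (GRCm38.p6, from 250 bases before to 50 bases after the start) were given for 5 of the 7 genes, in 6 windows, *Cryab* and *Hspb2* being the ones without an entry. They were searched on both strands for the core of the heat shock element, the site of heat shock factors, spelled GAANNTTC or TTCNNGAA. Of all 32851 windows, 15.1% held such a match, and so did a window each of *Hspb1*, *Hspb3*, *Hspb6* and *Hspb8*, but not that of *Hspb7*. Windows of 4 genes are shown because these genes went different ways in the unpaired comparison below. *Hspb7* and *Hspb8* fell, though *Hspb8* did not pass once libraries sharing a replicate number were paired. *Hspb6* lay above control in every *Phf2* KO library, as did 12.9% of all genes tested, but neither *Hspb6* nor *Hspb1* passed the test. Capitals mark heat shock element cores and, in *Hspb6*, a TATA box (TATAAA).
Hspb7 (chr4:141420529-141420828, plus): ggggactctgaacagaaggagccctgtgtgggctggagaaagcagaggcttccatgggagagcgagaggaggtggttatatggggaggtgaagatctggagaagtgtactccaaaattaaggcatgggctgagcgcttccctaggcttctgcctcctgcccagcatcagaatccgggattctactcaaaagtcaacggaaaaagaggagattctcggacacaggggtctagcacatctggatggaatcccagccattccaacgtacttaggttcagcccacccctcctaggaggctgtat
Hspb8 (chr5:116422815-116423114, minus): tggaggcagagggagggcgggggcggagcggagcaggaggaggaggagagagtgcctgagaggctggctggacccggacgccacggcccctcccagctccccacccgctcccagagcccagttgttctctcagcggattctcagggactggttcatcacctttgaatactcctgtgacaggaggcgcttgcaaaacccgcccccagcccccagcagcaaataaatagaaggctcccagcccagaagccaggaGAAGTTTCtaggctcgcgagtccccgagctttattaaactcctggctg
Hspb6 (chr7:30553051-30553350, plus, the window nearest the start of the coding transcript): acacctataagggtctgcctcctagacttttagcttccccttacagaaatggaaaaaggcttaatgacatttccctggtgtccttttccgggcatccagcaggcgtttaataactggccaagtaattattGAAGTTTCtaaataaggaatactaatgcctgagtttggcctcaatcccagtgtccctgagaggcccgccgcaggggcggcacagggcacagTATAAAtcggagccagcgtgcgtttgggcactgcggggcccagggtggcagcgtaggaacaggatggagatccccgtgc
Hspb1 (chr5:135887669-135887968, plus): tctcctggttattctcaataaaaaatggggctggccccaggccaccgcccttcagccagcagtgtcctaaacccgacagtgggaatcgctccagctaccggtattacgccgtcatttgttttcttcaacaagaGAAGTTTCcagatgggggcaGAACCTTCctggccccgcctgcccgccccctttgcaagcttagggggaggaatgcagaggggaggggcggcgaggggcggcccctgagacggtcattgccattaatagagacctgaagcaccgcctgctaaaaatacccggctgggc

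The letters GAAGTTTC stood in 3 of these windows, from position 3 after the start in *Hspb8*, from -120 in *Hspb6* and from -117 in *Hspb1*, and *Hspb1* held another core, GAACCTTC, from -97. The window of *Hspb3* (chr13:113663627-113663926) had the core GAATTTTC from -224 and a match to the MEF2 consensus, CTATAAATAG from -12, which contains a TATA box. MEF2 consensus matches were in 1.86% of all windows. The E-box CANNTG, bound by myogenic factors and present in 72.3% of all windows, was found in *Hspb1*, *Hspb3*, *Hspb7* and *Hspb8*. The form CAGCTG (16.3% of all windows) and the CArG box (1.63%) had no match in the 6 windows. A match describes these letters and is not a measured site.

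Estimated counts summed to between 52526109 and 67502788 per library. *Phf2* (ENSMUSG00000038025, chr13:48801750-48871119) was at 102.4, 95.5 and 104.6 CPM in control replicates 1 to 3, and at 41.1, 37.6 and 38.6 CPM in *Phf2* KO replicates 1 to 3, where CPM is the count scaled for the TMM-adjusted depth of its library. Its log2 fold change was -1.37 (standard error, SE, 0.055, adjusted p = 8.32e-09). All 10 myotube markers were detected, the *Phf2* KO libraries lay below the control libraries without overlap for each of them (12.2% of all genes tested), and 8 passed the test described below, all lower (3.26% of all genes tested). Their summed level was 7271 to 8364 CPM in control and 5810 to 6310 CPM in *Phf2* KO. Of 6 tested markers of undifferentiated myoblasts, 5 were higher by sign and 0 passed the quasi-likelihood test of edgeR, with 1, 3 and 1 past the threshold with exactTest, DESeq2 and limma-voom. The 3 at an unadjusted p under 0.05 went different ways, *Id1* (log2 fold change 0.29) and *Id3* (0.50) being higher and *Cd34* (-0.19) lower. The sum of the list was 203 to 245 CPM against 257 to 274 CPM, with *Id3* at 82.2 to 109.8 CPM against 127.0 to 147.8 CPM. Among adipocyte, endothelial and leukocyte markers, no gene exceeded 6.41 CPM in a library, 5 of 14 genes were tested, the sum of a list reached at most 6.58 CPM in a library, and *Plin1* had a count of 0 in all 6. Fewer differentiated cells and less RNA per cell cannot be told apart in bulk RNA, and the part of the shift in myotube markers in the results below was not tested.

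By TPM, which is scaled per length so that genes can be compared, the family reached from 469 TPM down to 0.693 TPM. *Cryab* was the highest member, with levels of 434, 469 and 442 TPM in control replicates 1, 2 and 3 and 381, 367 and 366 TPM in *Phf2* KO replicates 1, 2 and 3. *Hspb1* was next, with 309, 308 and 320 TPM in control and 323, 346 and 309 TPM in *Phf2* KO. Together these broadly expressed members made up 75.3% ± 1.11 (SD, n = 3) of the summed TPM of the family in control and 76.3% ± 1.33 (SD, n = 3) in *Phf2* KO. *Hspb8* followed with 125 to 144 TPM in control and 114 to 126 TPM in *Phf2* KO, and *Hspb2* with 77.6 to 89.9 TPM and 63.6 to 74.9 TPM. *Hspb6* stood at 15.8 to 19.9 TPM in control and 22.4 to 24.0 TPM in *Phf2* KO. *Hspb7*, at 5.04 to 6.08 TPM in control, and *Hspb3*, at 3.09 to 5.61 TPM, closed the order, and they were the only neighbours whose ranges overlapped, in control as well as in *Phf2* KO. The order was the same in both groups.

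**Figure D1:**
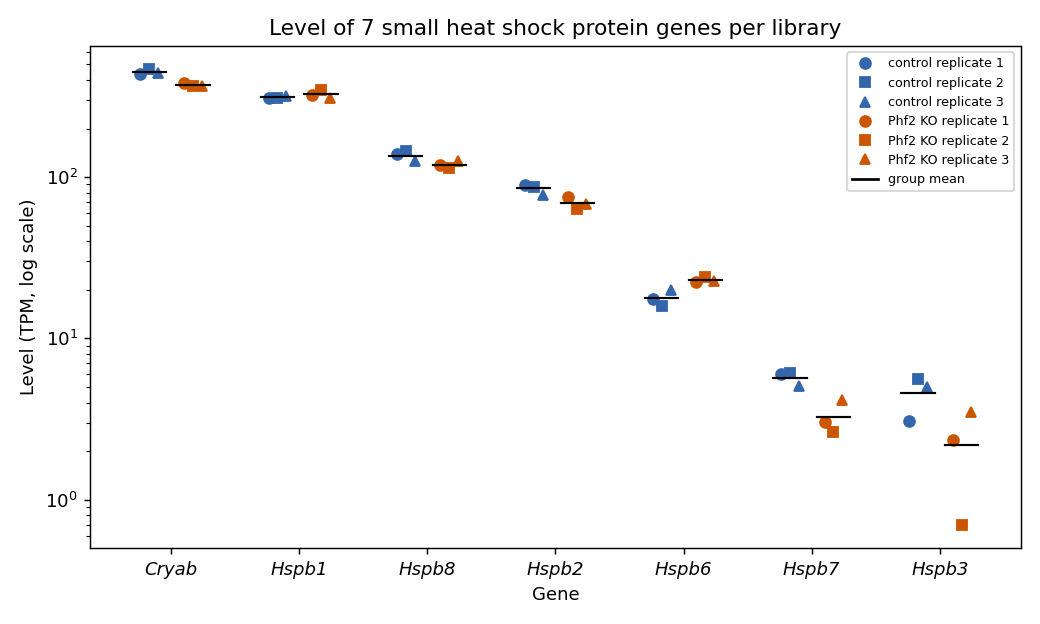
Level of each small heat shock protein gene in TPM (vertical axis, log scale) in every library, with control in blue, *Phf2* KO in orange, a symbol per replicate and a black line at the group mean. The order from *Cryab* to *Hspb3* is the same in both groups, and the ranges overlap only between *Hspb7* and *Hspb3*.

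*Phf2* KO was compared with control by the quasi-likelihood test of edgeR over all genes tested, with Benjamini-Hochberg adjustment and a threshold of 0.05. In this test, which does not pair libraries, *Cryab*, *Hspb7* and *Hspb8* fell, and *Hspb2*, *Hspb3*, *Hspb6* and *Hspb1* did not pass the threshold. Thus 3 of the 7 members passed, all of them lower, where 6.48% of all genes tested passed, 3.26% lower and 3.22% higher. At an unadjusted p under 0.05 the numbers were 5 lower and 1 higher. The share of all genes tested at an unadjusted p under 0.05 was not counted, in this fit or in those without 1 library. The shares given above are for adjusted p and do not apply to these numbers. By sign alone, 5 of 7 members were lower, and 50.2% of all genes tested were. The median log2 fold change of the members was -0.24, with a range from -1.05 to 0.38, and that of all genes was -0.00096. Once libraries sharing a replicate number were paired, 3 members again passed, but not the same ones. *Hspb2* (adjusted p = 0.039) joined *Cryab* (0.00404) and *Hspb7* (0.0175), and *Hspb8* (0.0632) missed the threshold. Members are said to have fallen by the unpaired test. Without control replicate 2 the lowest adjusted p was that of *Cryab* (0.0682), so 0 members passed, with 5 at an unadjusted p under 0.05, and without control replicate 3 there were 4 lower and 1 higher. A single member passed without control replicate 1 (*Cryab*), *Phf2* KO replicate 2 (*Cryab*) or *Phf2* KO replicate 3 (*Hspb7*).

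*Cryab* encodes the founding small heat shock protein of muscle, a chaperone of desmin filaments. Its level was 195.6, 205.4 and 191.5 CPM in control replicates 1 to 3, and 175.3, 166.6 and 159.6 CPM in *Phf2* KO replicates 1 to 3. Every *Phf2* KO library thus lay below every control library, as was the case, in this direction, for 12.2% of all genes tested (25.1% in either direction). The mean went from 197.5 ± 7.15 to 167.1 ± 7.86 CPM (SD, n = 3 each), which is 84.6% of control. The log2 fold change was -0.24 (SE 0.048, adjusted p = 0.00883). It stayed under the threshold in 13 of 13 alternatives that used the 6 libraries (adjusted p from 0.000127 to 0.0437), but not without control replicate 2 (0.0682) or without *Phf2* KO replicate 3 (0.0548).

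*Hspb1* encodes the stress-inducible partner of alphaB-crystallin, which also binds actin. Its levels were 129.7, 129.6 and 133.2 CPM in control and 136.7, 144.2 and 125.1 CPM in *Phf2* KO, so the groups overlapped, with the highest and the lowest value both in *Phf2* KO. The log2 fold change was 0.05 (SE 0.052, adjusted p = 0.69), and its 95% confidence interval ran from 0.958-fold to 1.12-fold of control. *Cryab* was 1.40, 1.52 and 1.38 times *Hspb1* by TPM in the control libraries, and 1.18, 1.06 and 1.18 times in the *Phf2* KO libraries. This ratio, which does not depend on how libraries are scaled, was lower in each *Phf2* KO library. On the log2 scale it differed by -0.33 (two-sided exact permutation test, p = 0.1, the smallest p that 3 libraries against 3 allow, and 0.3 adjusted over the 3 ratios tested).

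*Hspb8* encodes the partner of the co-chaperone BAG3, with which it sends damaged filamin to autophagy. Its level was 116.6, 121.9 and 104.8 CPM in control replicates 1 to 3, and 100.5, 95.2 and 102.4 CPM in *Phf2* KO replicates 1 to 3. The groups were set apart by the small gap between control replicate 3 and *Phf2* KO replicate 3. Of all genes tested, 12.2% were lower without overlap by CPM. By TPM these libraries of *Hspb8* overlapped, with 125.4 and 125.7. The mean went from 114.5 ± 8.75 to 99.4 ± 3.70 CPM (SD, n = 3 each), or by -0.20 on the log2 scale (SE 0.056, adjusted p = 0.0453). Of the 3 falls, this one was nearest to the threshold. It was above it with exactTest (0.0554), limma-voom (0.0906), limma on log2 TPM (0.252 and 0.258 by pseudocount) and the replicate number as a block (0.0632), and in the fits without 1 library it passed only without control replicate 3 (0.0106, the others from 0.0963 to 0.239).

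*Hspb7* encodes a cardiovascular and muscle member that binds filamin C and actin. Its level was 7.77, 7.85 and 6.44 CPM in control and 3.97, 3.35 and 5.19 CPM in *Phf2* KO. All *Phf2* KO libraries were lower, as for 12.2% of all genes tested, and the range within each group was wide. With means of 7.35 ± 0.791 CPM (SD, n = 3) and 4.17 ± 0.934 CPM (SD, n = 3), the *Phf2* KO level was 56.7% of control, and the log2 fold change of -0.82 (SE 0.18, adjusted p = 0.0131) was the largest of the 3 falls. The 95% confidence interval was from 0.437-fold to 0.739-fold. The adjusted p was 0.132 and 0.14 when log2 TPM was tested by limma with a pseudocount of 1 and of 0.1, and 0.0521, 0.0791 and 0.0667 without control replicate 1, control replicate 2 and *Phf2* KO replicate 2.

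*Hspb2* and *Hspb3* encode proteins that join in a complex of their own, which appears as myoblasts differentiate. *Hspb2* was at 25.5, 24.7 and 20.2 CPM in control replicates 1 to 3, and at 20.5, 17.5 and 17.9 CPM in *Phf2* KO replicates 1 to 3. The groups overlapped by CPM, since *Phf2* KO replicate 1 was just above control replicate 3, but not by TPM. The log2 fold change was -0.33 (SE 0.10, adjusted p = 0.0715), with a 95% confidence interval from 0.684-fold to 0.924-fold. With the replicate number as a block *Hspb2* passed the threshold (adjusted p = 0.039), as it did with DESeq2 (0.0276). Of the 13 alternatives with 6 libraries it passed in 5, and the adjusted p ranged between 0.0276 and 0.156. In the fits without 1 library it passed only without control replicate 3 (0.0188, the others from 0.0518 to 0.256).

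*Hspb3* had the lowest counts of the family. They were 64, 119 and 105 in control and 53, 14 and 84 in *Phf2* KO, which stand for about 3.5 to 29.7 read pairs a library. In CPM the levels were 1.12, 2.04 and 1.80 in control and 0.862, 0.267 and 1.24 in *Phf2* KO, and *Phf2* KO replicate 3 lay above control replicate 1. The log2 fold change of -1.05 had an SE of 0.46 (adjusted p = 0.232) and a 95% confidence interval from 0.241-fold to 0.963-fold, so the size of the difference was poorly determined at this depth. *Hspb2* was 29.1, 15.6 and 15.5 times *Hspb3* by TPM in control and 31.8, 91.7 and 19.4 times in *Phf2* KO. The log2 ratio differed by 1.00 (two-sided exact permutation test, p = 0.2, and 0.3 adjusted over the 3 ratios), and by 0.38 without *Phf2* KO replicate 2. Between libraries with the same replicate number the ratio was higher and *Hspb3* lower in *Phf2* KO in 3 of 3 pairs (exact sign-flip test of the ratio, p = 0.25, the smallest that 3 pairs allow).

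*Hspb6* encodes Hsp20, a target of protein kinase A in muscle, and was the member with the largest difference upwards. Its level was 11.1, 10.04 and 12.6 CPM in control and 14.6, 15.5 and 13.8 CPM in *Phf2* KO, so that every *Phf2* KO library was above every control library, as for 12.9% of all genes tested. The mean went from 11.2 ± 1.29 to 14.6 ± 0.854 CPM (SD, n = 3 each), 129.9% of control. The log2 fold change was 0.38 (SE 0.11) with an adjusted p of 0.0565, which misses the threshold, and the 95% confidence interval ran from 1.10-fold to 1.53-fold. It passed with DESeq2 (0.0228), with a CPM of at least 1 in 3 libraries (0.0431), with counts divided by 4 (0.0439) and without control replicate 3 (0.0329), and the adjusted p with the replicate number as a block was 0.07. Only 1 of the 4 annotated transcripts of *Hspb6* is coding, and the gene-level counts do not separate them.

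**Figure D2:**
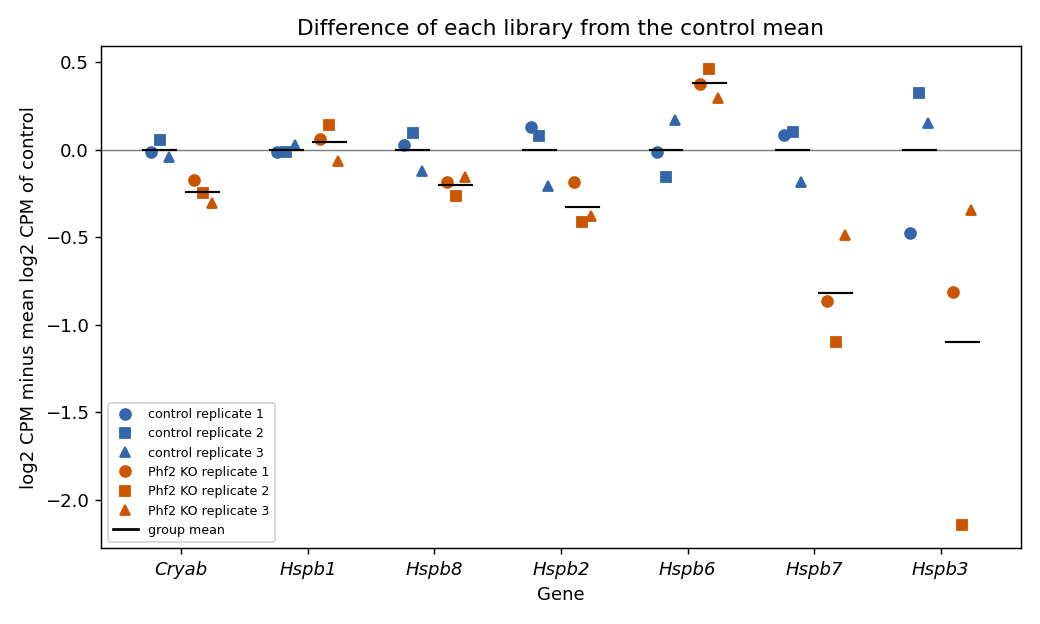
Log2 CPM of each library minus the mean log2 CPM of control (vertical axis) for each gene, with control in blue, *Phf2* KO in orange, a symbol per replicate and black lines at group means. *Cryab*, *Hspb8* and *Hspb7* lie below control and *Hspb6* above it in all 3 *Phf2* KO libraries, while *Hspb1*, *Hspb2* and *Hspb3* overlap. Of all genes tested, 12.2% were lower without overlap and 12.9% higher. By TPM the groups of *Hspb8* overlap and those of *Hspb2* do not.

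Single libraries of a group also stood at the edge for several members. Control replicate 3 had the lowest control value of *Cryab*, *Hspb2*, *Hspb7* and *Hspb8* and the highest of *Hspb1* and *Hspb6*. In the same way, *Phf2* KO replicate 2 had the lowest value of *Hspb2*, *Hspb3*, *Hspb7* and *Hspb8* in its group and the highest of *Hspb1* and *Hspb6*. The SD within groups on the log2 scale was 0.060 for *Cryab*, 0.075 for *Hspb1* and 0.088 for *Hspb8*, but 0.25 for *Hspb7* and 0.73 for *Hspb3*.

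Summed over the 7 members, the family held 998, 1036 and 995 TPM in control and 925, 918 and 899 TPM in *Phf2* KO, without overlap. The mean went from 1009.7 ± 22.9 to 913.7 ± 13.6 TPM (SD, n = 3 each), a difference of -96.0 TPM (two-sided exact permutation test, p = 0.1, the smallest possible). Most of this difference lay in *Cryab*, whose mean went from 448.3 to 371.3 TPM. The means of *Hspb1* (312.4 to 325.9 TPM) and *Hspb6* (17.8 to 23.0 TPM) went up, so the sum does not stand for a fall of every member. For the neighbours on chromosome 9 the ratio overlapped between groups. *Cryab* was 4.82, 5.37 and 5.70 times *Hspb2* by TPM in control and 5.08, 5.78 and 5.37 times in *Phf2* KO. The log2 ratio of *Hspb2* to *Cryab* differed by -0.032 (exact permutation test, p = 0.7), which is less than the SD of 0.12 in control, and its sign changed without control replicate 1 or *Phf2* KO replicate 2.

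**Figure D3:**
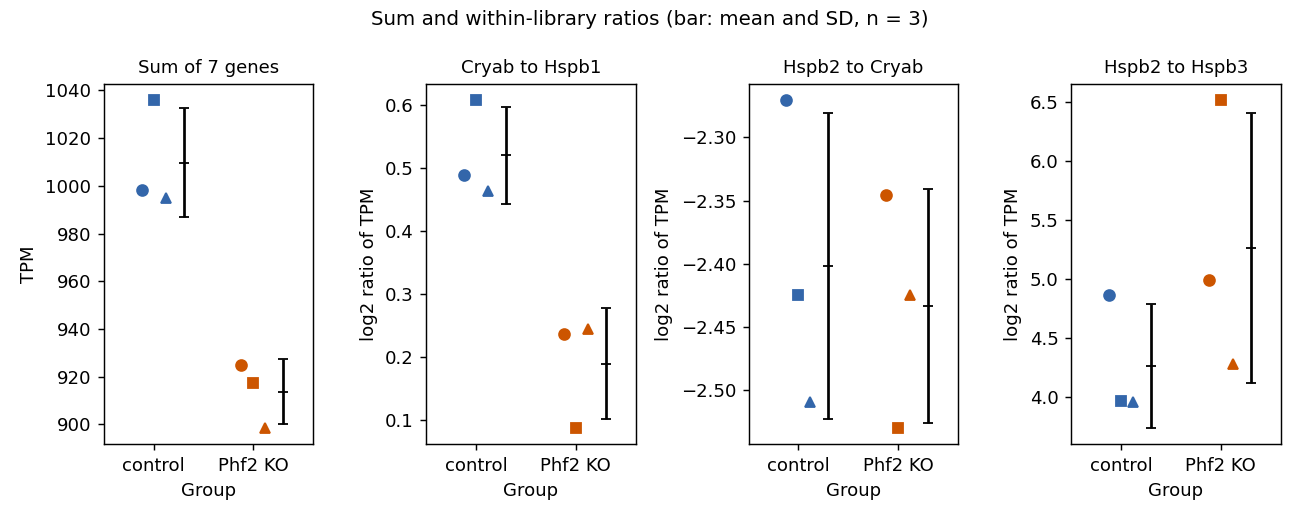
Summed TPM of the 7 genes and 3 log2 ratios of TPM (vertical axes, which do not start at 0) per library, with control in blue, *Phf2* KO in orange, circle, square and triangle for replicates 1, 2 and 3, and bars for mean and SD (n = 3). The sum and the ratio of *Cryab* to *Hspb1* do not overlap between groups, whereas the ratios of *Hspb2* to *Cryab* and to *Hspb3* do.

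Other members of the superfamily were scarce or did not pass the test. *Cryaa*, the lens alpha-crystallin, and *Odf1*, a sperm tail protein, had a count of 0 in all 6 libraries. *Hspb9*, a testis member, had counts of 19, 29 and 7 in control and 16, 0 and 12 in *Phf2* KO (adjusted p = 0.588). *Hspb11*, which is a protein of cilia despite its symbol, was at 13.4 ± 0.424 CPM (SD, n = 3) in control and 14.3 ± 1.57 CPM (SD, n = 3) in *Phf2* KO (adjusted p = 0.689).

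The genes around the family were read from 5 lists with 59 genes, of which 58 were tested, 7 fell and 2 rose. The counts of the single lists stand beside the 6.48% of all genes tested that passed, 3.26% lower and 3.22% higher. Heat shock factors activate several small heat shock protein genes. The 4 tested genes of that list were *Hsf1*, *Hsf2*, *Hsf4* and *Hsbp1*, the last of which encodes a binding protein. Of these, 0 passed in the quasi-likelihood test, at an unadjusted p under 0.05, or in any of 19 alternatives. These values are RNA levels, and the activity of the factors was not measured. *Hsf1*, the main stress-responsive factor, was at 68.2 ± 2.23 CPM (SD, n = 3) in control and 67.9 ± 3.25 CPM (SD, n = 3) in *Phf2* KO, with a 95% confidence interval of the log2 fold change from -0.12 to 0.11. *Hsbp1*, a binding protein that restrains it, had a log2 fold change of 0.10 (adjusted p = 0.389). Of 20 chaperones and their helpers, 1 passed, which is a share near that of all genes, and the median log2 fold change was -0.029. This list is labelled heat-inducible but also holds constitutive genes such as *Hspa8*. The gene that rose was *Ahsa2*, a cochaperone of Hsp90, by 0.21 on the log2 scale (SE 0.051, adjusted p = 0.0277). The call was lost, and with it the count of the list, without control replicate 2 (0.133), control replicate 3 (0.0598), *Phf2* KO replicate 2 (0.0671) or *Phf2* KO replicate 3 (0.0923), and in limma on log2 TPM (0.219 and 0.22). *Hspa8*, the constitutive Hsp70, was at 1225 ± 25.6 CPM (SD, n = 3) in control and 1227 ± 35.6 CPM (SD, n = 3) in *Phf2* KO (95% confidence interval of the log2 fold change from -0.075 to 0.080), and *Hsp90ab1* had a log2 fold change of -0.055 (adjusted p = 0.445).

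The list around BAG3 and chaperone-assisted autophagy, the route served by HSPB8, held 13 tested genes, of which 2 passed, both lower, with a median log2 fold change of 0.002. With limma-voom 1 passed, and with exactTest, limma on log2 TPM, or without control replicate 2 or *Phf2* KO replicate 2 the count was 0. *Flnc*, the filamin of the Z-disc and a client of this route, fell by 0.19 on the log2 scale (SE 0.037, adjusted p = 0.00877, and 0.0594 with exactTest). *Synpo2*, its adaptor that binds BAG3, fell by 0.20 (SE 0.054, adjusted p = 0.0396), but not with the replicate number as a block (adjusted p = 0.0544) or exactTest (0.0784), and without 1 library it passed only without control replicate 3. *Bag3* itself, named after its values were seen, was at 96.5 ± 2.27 CPM (SD, n = 3) in control and 97.9 ± 7.53 CPM (SD, n = 3) in *Phf2* KO, with a 95% confidence interval of the log2 fold change from -0.098 to 0.14. The autophagy receptor *Sqstm1* had a log2 fold change of -0.10 (adjusted p = 0.273).

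Among 13 genes of proteins that small heat shock proteins bind in muscle, 4 fell and 1 rose, with a median log2 fold change of -0.21. The count of 5 became 2 in limma on log2 TPM, 3 without control replicate 2 or *Phf2* KO replicate 2, and 8 without control replicate 3. *Actn2*, the alpha-actinin of the Z-disc, fell by 1.41 on the log2 scale (SE 0.20, adjusted p = 0.00234, and 0.0561 and 0.058 in limma on log2 TPM). *Des*, the muscle intermediate filament protein that alphaB-crystallin protects, went from 1088 ± 66.7 to 843.2 ± 30.3 CPM (SD, n = 3 each), or by -0.37 on the log2 scale (SE 0.046, adjusted p = 0.000324). *Nes*, another intermediate filament gene, fell by 0.21 on the log2 scale (adjusted p = 0.022), but it missed the threshold with exactTest (0.0772), in limma on log2 TPM (0.221 and 0.225) and in each fit without 1 library except that without control replicate 3. *Flnc*, already counted above, was the other gene that fell. *Flna*, the broadly expressed filamin, rose by 0.19 on the log2 scale (SE 0.030, adjusted p = 0.00145). *Vim* (log2 fold change 0.088, adjusted p = 0.514) and *Acta1* (-0.36, adjusted p = 0.117) did not pass, though *Acta1* passed with the replicate number as a block (adjusted p = 0.000808).

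Of 11 sarcomere chaperones, 2 passed, both lower, with a median of -0.028. These were *Unc45b*, which folds the myosin head (log2 fold change -0.69, SE 0.068, adjusted p = 5.8e-05), and *Smyd1*, a methyltransferase that acts with it (-0.36, SE 0.075, adjusted p = 0.0108). *Unc45b* passed in each of the 19 alternatives, whereas *Smyd1* did not in limma on log2 TPM (0.146 and 0.148) or in the fits that left out *Phf2* KO replicate 2 (0.0671), control replicate 1 (0.0503) or control replicate 2 (0.0791). *Hsp90aa1* (log2 fold change 0.030, adjusted p = 0.817) and *Cct2*, of the chaperonin ring (0.006, adjusted p = 0.963), did not pass. The myotube markers had a median of -0.38, lower than that of the 7 small heat shock proteins, and included *Ckm* (-0.78), *Mymk* (-0.50), *Mymx* (-0.47), *Myh3* (-0.44) and *Chrna1* (-0.39). The difference between these medians was not tested. *Des* and *Acta1* are among the myotube markers as well as among the bound proteins above, so those lists are not separate. Likewise, *Hspa8* is in the lists of chaperones and of BAG3, and *Hsp90aa1* in those of chaperones and of sarcomere chaperones.

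**Figure D4:**
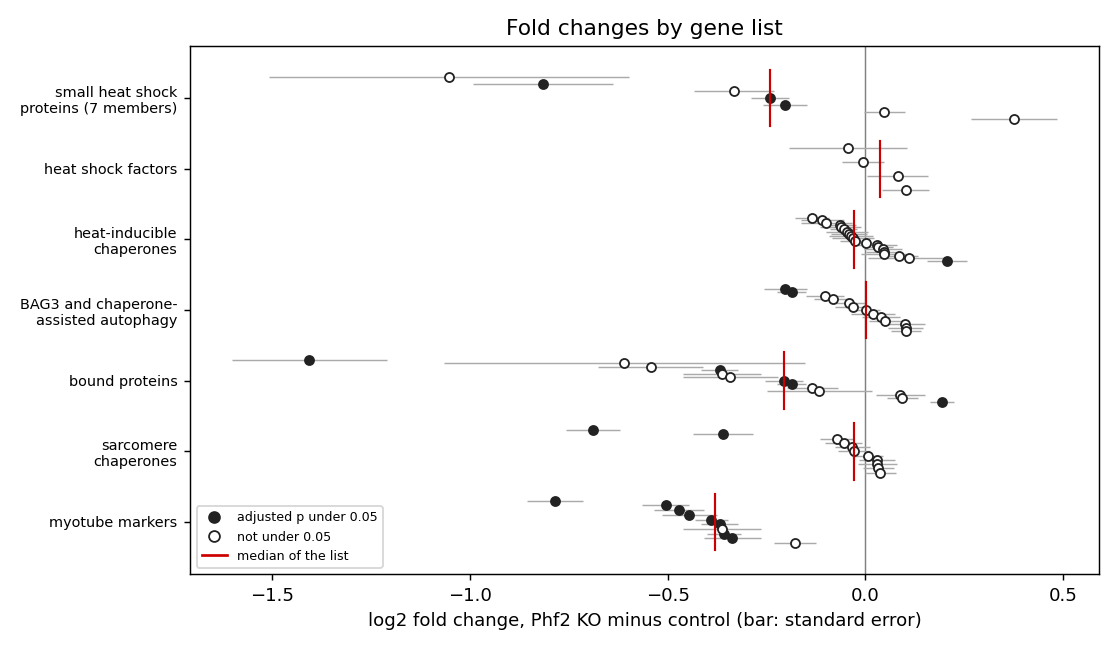
Log2 fold change of *Phf2* KO over control (horizontal axis) for each tested gene of 7 lists, with grey bars for the standard error, filled circles for an adjusted p under 0.05 and a red line at the median of each list. The small heat shock proteins spread from -1.05 to 0.38, and all myotube markers lie below 0. The list labelled heat-inducible chaperones, which also holds constitutive genes, has a median of -0.029.

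Genes with the pattern most like that of a member were sought over the 6 libraries by Pearson's r of log2 CPM, among the 10923 genes whose mean reached 5 CPM. Because the libraries share the difference between groups, r is a description only. The nearest to *Cryab* were *Angptl4* (r = 0.998, log2 fold change -0.25), *Gm21981* (0.994, -0.28) and *Abhd8* (0.992, -0.14). For *Hspb7* they were *Pappa2* (0.995, log2 fold change -0.23), *Reep4* (0.995, -0.25) and *Nsun2* (0.992, -0.13). For *Hspb8* they were *Mief2* (0.993, log2 fold change -0.36), *Hivep2* (0.992, -0.14) and *Synpo2* (0.992, -0.20). Of these 9 genes, *Gm21981* and *Synpo2* passed the test between groups.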

How the data were processed

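RNA-seq of 3 control and 3 *Phf2* KO libraries of C2C12 myotubes was analysed. The authors mapped read pairs (150 bp reads) to mm10 with HISAT2 and quantified genes with StringTie (versions and annotation are not given in the sources used here). The deposited matrix holds their estimated counts, unscaled whole numbers. Coverage times length per count had a median of 74.98 to 74.99 per library, so a read pair adds about 4 counts, and totals are not read numbers. TPM and FPKM are values that the authors scaled within each library. The deposited TPM signal also lists assembled loci, and only rows of reference genes were used.

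After filterByExpr with a minimum count of 10 and TMM scaling, counts were tested with edgeR 4.0.16 in R 4.3.3 (quasi-likelihood, robust, prior count 0.125), with Benjamini-Hochberg adjustment over 17310 genes. Alternatives were exactTest, DESeq2 1.42.0, limma-voom (limma 3.58.1), other scalings and filters, counts divided by 4, limma on log2(TPM + 1) and log2(TPM + 0.1), counts summed per symbol, a replicate block, and each library left out. The procedure was tested on simulated data. Deviations of libraries with the same replicate number correlated at 0.259, 0.449 and 0.258 across 10924 genes, and those with different numbers at -0.338 to 0.118. The labels give the numbers no meaning, and by this check, made across genes, they were taken as pairs in the block. The members and lists were chosen with earlier results of these data known. Named genes are *Phf2*, the members, the related small heat shock proteins, at most 5 genes past the threshold and 2 abundant others per list, the 3 most similar genes of each member that fell, and genes within 5 kb of a member, not all of which are reported here. Coordinates and transcripts are from GENCODE M21, whose positions equal the deposited ones for all 8 genes checked. Proteins were not analysed here.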

Additional observations from a re-analysis of the deposited data

How the results depend on the processing

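Over all genes tested, 1122 passed the threshold, against 176 and 169 when limma tested log2 TPM with a pseudocount of 1 and of 0.1, 1316 with the replicate block, and 468 to 1039 in the fits without 1 library, the fewest without control replicate 2. Of the 7 members, 3 passed in the unpaired quasi-likelihood test. With DESeq2, with a CPM of at least 1 in 3 libraries and with counts divided by 4, 5 passed each time. More of all genes passed in these fits too, with 1527 of 13948, 1264 of 13441 and 1286 of 14163, against 1122 of 17310. With exactTest and with limma-voom 2 members passed (1127 and 916 of 17310 genes). With each pseudocount in limma 1 member passed, with the replicate block 3, and without 1 library 0 to 5. Of the 58 list genes, 3 passed with each pseudocount in limma and 4 to 11 without 1 library, against 9. The log2 ratio of *Hspb2* to *Cryab* was 0.0337 without control replicate 1 and 0.0163 without *Phf2* KO replicate 2, against -0.032, and -0.086 to 0.0337 over the fits without 1 library. No other direction of a member or ratio changed, the replicate block changed the calls of *Hspb2*, *Hspb8*, *Synpo2* and *Acta1* among the members and list genes, and scaling moved the median of all genes by less than 0.1 (log2). An exact sign-flip test of the sum and the ratios within replicate numbers, chosen after seeing the data, gave p = 0.25, its smallest value, except for *Hspb2* to *Cryab* (p = 0.75). The cause of these changes was not tested. Depth limits *Hspb3* most, with as few as 14 estimated counts in a library.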

Other observations

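Outside the 7 members, *Hspb11*, *Hspa8* and the adipocyte marker *Pparg* were among the genes that differed by unit in a single library each. The level of *Hspb11* in *Phf2* KO replicate 2 was 18.5 TPM against 44.2 to 59.0 TPM in the other 5 libraries, whereas its CPM there was 13.3 against 12.96 to 16.1. The level of *Hspa8* in *Phf2* KO replicate 3 was 1153 TPM against 661 to 733 TPM in the other 5, whereas its CPM there was 1242 against 1186 to 1253. For *Pparg*, control replicate 3 had 0.197 TPM against 3.16 to 5.87 TPM in the other 5, whereas its CPM there was 4.58 against 4.34 to 6.41. The cause was not tested.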
